A study of Taeniopygia guttata with 134 samples.

Results

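The genes described here had transcripts more abundant in the hypothalamus (HY) of male zebra finches than in either limbic region sampled. Those regions were NST (the bed nucleus of the stria terminalis) and TN (nucleus taeniae). Averaged over 4 social settings, the level of these genes also moved little after an injection of lipopolysaccharide (LPS). These genes number 101 of the 18618 gene identifiers counted. Brain tissue from 3 regions of 46 males was sequenced as polyadenylated RNA. Each male had received LPS, a bacterial cell wall component used to provoke an immune reaction, or the control injection (coded S in the sample labels and C in the design text), and was then isolated (ISO), left without a break beside a female he knew (KFC), returned to such a female after a separation (KF) or placed with an unfamiliar female (NF). Libraries are numbered by male, and libraries of 1 number in different regions were taken as 1 male. The labels do not give the age of the males, the dose or the time after injection.

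Every region held 8 groups, made of the 4 settings and 2 injections. ISO and KF had 6 control and 6 LPS libraries in every region, and KFC had 5 and 5. NF had 6 control and 5 LPS libraries in HY, 6 and 6 in NST, and 5 and 4 in TN. All 3 regions were available from 42 males, of which 22 were controls and 20 had received LPS.

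The hypothalamus governs feeding, water balance, temperature, reproduction and stress hormone release. Much of its identity rests on neuropeptides made by small groups of neurons and on the transcription factors that specify those neurons during development. The bed nucleus of the stria terminalis and the nucleus taeniae, the avian counterpart of part of the medial amygdala, are limbic areas that exchange projections with the hypothalamus and take part in social and sexual behaviour. The deposited table gives gene identifiers without names, and none of them matched the zebra finch gene table used. No member could therefore be given a gene name or a function, and whether the dissected tissue held the defining markers of hypothalamus was not tested. The members are known by their identifiers and by their levels.

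The members were chosen by measured values, namely the levels of control males in each region and the averaged LPS difference. The level of a gene is the log2 of its CPM, the count scaled to the total of the library, with 0.5 added to each count, and it is not corrected for gene length. A member had a mean level of at least 1 in HY of control males, lay at least 1 (2-fold) above the mean of NST and of TN, and had an LPS difference, averaged over the 4 settings, of under 0.4 in size in each region. Of 12397 genes at that HY level, 198 met the difference between regions, and 97 of these were left out by the LPS limit. In HY, 31 of the genes left out had an LPS difference of -0.4 or lower and 6 of 0.4 or higher. In NST these numbers were 46 and 12, and in TN 11 and 40, with some genes past the limit in more than 1 region. The member nearest the limit lay 1.005 above the higher of the other regions, and the nearest gene outside, with the other criteria met, 0.999. Close to this limit stood 32 members between 1 and 1.1 and 43 genes between 0.9 and 1 that were not members. The excess in HY and the averaged LPS difference, which chose the members, are given as a description without a test.

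Total counts ran from 7339294 to 14096470 per library. A few libraries stood apart. The HY library of control KF male 44 had the lowest correlation with the median profile of its own region (r = 0.897 across genes), and the NST library of control NF male 4 lay closer to the TN median (r = 0.964) than to that of NST (r = 0.958). The HY libraries of males 32 and 33, both LPS males in KF, matched the other regions of each other's male: HY of male 32 had r = 0.575 with NST of male 33 and r = -0.13 with NST of male 32, in deviations from group means across genes. Since both males belong to the same group, an exchange of their HY libraries would leave the group means as they are. NST of male 19 did not follow the other regions of its male. NST of LPS NF male 3 lay nearly as close to the HY median (r = 0.963) as to that of NST (r = 0.964). These correlations run across genes, which do not count as independent replicates.

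In control males the members spanned a wide range of HY levels, from 1.03 to 7.73 with a median of 3.33. Their median level was 1.92 in NST and 1.33 in TN. Most exceeded the higher of the other 2 regions by little more than the limit, with a median of 1.18, an upper quartile of 1.41 and a largest value of 5.68. The excess was under 1.5 for 82 members, from 1.5 to 2 for 12, and at least 2 (4-fold) for 7. At least 3 (8-fold) was reached by 3 members. The excess did not grow with the level: over the 25 members with the highest HY levels its median was 1.15, against 1.21 over the 26 with the lowest. Together the members took a median of 0.288% of all counts in control HY libraries, 0.132% in NST and 0.0767% in TN, so the group is a small part of each library. In bulk tissue, fewer cells of a type and less RNA per cell cannot be told apart.

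**Figure D1:**
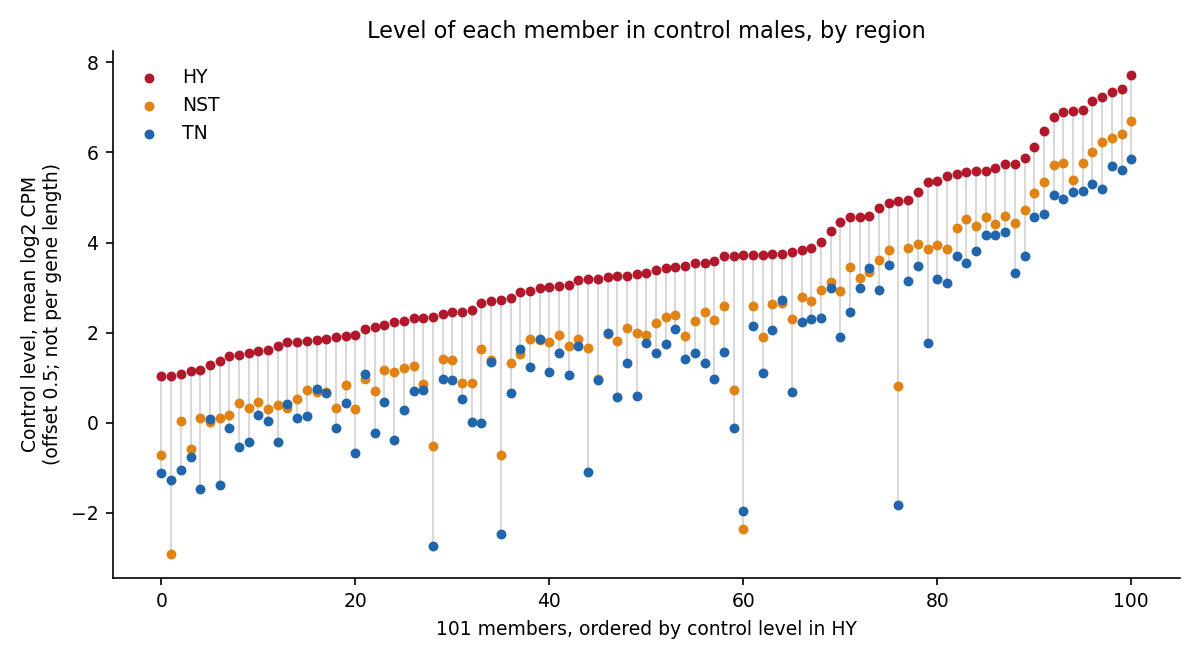
Mean level of each of the 101 members in control males (log2 CPM, not per gene length) in HY, NST and TN, with members ordered by their HY level and a grey line joining the regions of a member. The HY points run from 1.03 to 7.73, most NST and TN points lie between 1 and 2 units lower, and a few members drop far below the rest.

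ENSTGUG00000002868 had the largest excess in HY. In control males it ran from 5.45 to 24.8 CPM in HY with a median of 14.9 (n = 23), whereas in NST it ran from 0 to 1.55 with a median of 0.116 (n = 23) and in TN from 0 to 0.664 with a median of 0.263 (n = 22). Every HY library lay above every NST and TN library, and the gene had no count in 6 control NST and 3 control TN libraries. After LPS its HY values ran from 3.94 to 25.04 CPM with a median of 10.5 (n = 22), and the highest value outside HY was 1.16 CPM, in TN of male 59. It was at or near 0 in both limbic regions in either injection group.

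ENSTGUG00000009968 had the second largest excess, 4.10 on the log2 scale. It reached a median of 32.5 CPM in HY of control males (9.95 to 57.4, n = 23), 1.33 in NST (0.505 to 9.50, n = 23) and 0.268 in TN (0 to 1.79, n = 22). In LPS males the medians were 26.4 CPM in HY (9.59 to 57.6, n = 22), 1.55 in NST (0.190 to 8.63, n = 23) and 0.324 in TN (0 to 0.833, n = 21). The lowest HY library was above the highest NST library in both injection groups, by a small distance, and the NST libraries spread widely.

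The 2 members with the highest CPM in HY behaved differently from these. ENSTGUG00000010842 ran from 103 to 337 CPM in HY of control males with a median of 212 (n = 23), from 44.5 to 213 in NST with a median of 110 (n = 23) and from 28.2 to 110 in TN with a median of 55.7 (n = 22). ENSTGUG00000002482 had medians of 175 CPM in HY (118 to 261, n = 23), 99.8 in NST (38.1 to 156, n = 23) and 46.4 in TN (24.4 to 90.3, n = 22). Both formed a staircase from HY through NST to TN, and both had HY and NST libraries that overlapped. Their excess of 1.03 and 1.01 placed them next to the limit of the rule. The fit used for the tests scaled the libraries in another way (TMM). In that fit their control HY minus NST differences were 0.94 and 0.90, under the limit. After LPS, ENSTGUG00000010842 had medians of 177 CPM in HY (124 to 278, n = 22), 81.9 in NST (24.4 to 166, n = 23) and 62.5 in TN (24.01 to 96.2, n = 21). ENSTGUG00000002482 had 154 CPM in HY (106 to 279, n = 22), 86.5 in NST (29.8 to 161, n = 23) and 56.97 in TN (17.3 to 103, n = 21). The order of the medians was the same as in controls, and NST of male 65 was the lowest NST library for both.

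**Figure D2:**
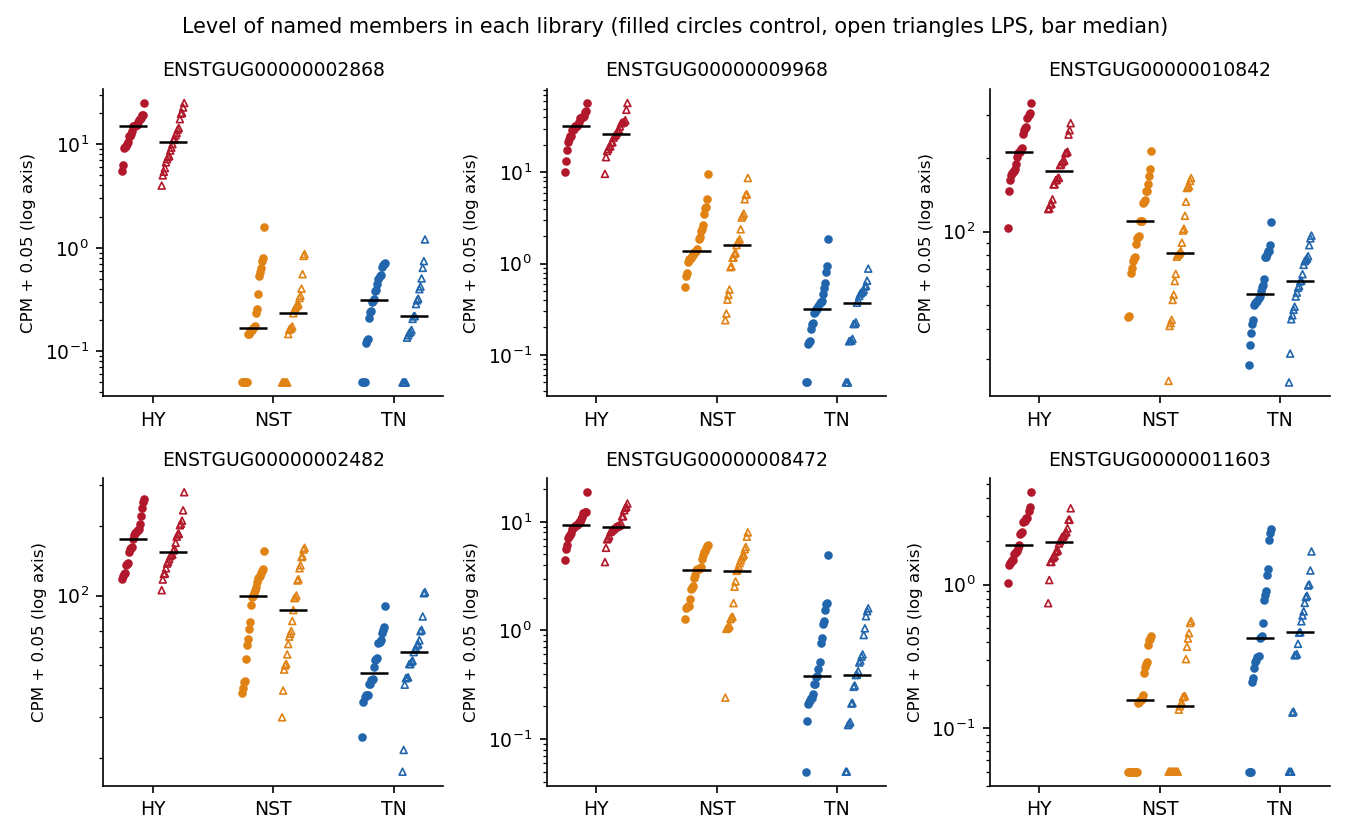
CPM of 6 members in every library (log axis, 0.05 added so that libraries without a count can be shown), by region, with filled circles for control males, open triangles for LPS males and a bar at the median. ENSTGUG00000002868 and ENSTGUG00000009968 part HY from the other regions in full, the 2 members with the highest CPM descend from HY through NST to TN, ENSTGUG00000008472 holds on in NST and nearly vanishes in TN, and ENSTGUG00000011603 is lowest in NST.

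A full parting of HY from the other regions was rare. In control males the lowest HY library lay above every NST and TN library for 7 of the 101 members, which compares with 0.153% of the 12397 genes at that HY level. In LPS males this held for 3 members, against 0.0887% of genes: ENSTGUG00000001972, chosen after its values were seen, ENSTGUG00000002868 and ENSTGUG00000009968. The rule fixes most of these values, so nothing is read from the counts. Without the library of male 44 the count in control males was 13 members, and the share of all genes was 0.250%.

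Within single males the order of the regions was counted as well. The rule fixes most of these values too, so nothing is read from the counts. HY was the highest of the 3 regions in a median of 21 of 22 control males per member, with the lowest member at 17, and in a median of 19 of 20 LPS males, with the lowest at 14. In every control male HY was highest for 38 members, where 1.73% of genes at that HY level had this, and in every LPS male for 46, where 2.6% did. For 24 members this held in all 42 males, and no share over all genes stands beside that count. The counts in LPS males and in all males include males 32 and 33, whose HY libraries matched the other regions of each other's male. An exchange of these libraries would alter the order of the regions within both males.

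The LPS males had entered the rule only through the limit on the averaged difference, which leaves an HY minus NST or HY minus TN difference of at least about 0.2 in their means. Their excess in HY had a median of 1.21, against 1.18 in controls. It was at least 1 for 81 members and below that for 20, with the lowest at 0.39. The excess was larger in LPS than in control males for 48 of 101 members. The averaged LPS minus control difference, which the rule held under 0.4 in size, had a median of -0.11 in HY, with 79 members below 0. In NST it was -0.13, with 80 below 0, and in TN 0.10, with 33 below 0. Over all genes at that HY level the medians were -0.0021, -0.016 and 0.022. The rule used these differences and the members varied together. No share over all genes stands beside the counts below 0, so nothing is read from them.

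The rule did not ask which of the 2 limbic regions was higher, but it used the control NST and TN levels in the margin and the LPS limit. That limit left out more genes for a fall than for a rise in NST (46 against 12), and the reverse in TN (11 against 40). The counts and p-values given here are therefore not independent of the rule. NST and TN differed for most of the members. Within control males 65 of 101 members were higher in NST and 1 was higher in TN (edgeR quasi-likelihood test with the male as a block, Benjamini-Hochberg adjusted p under 0.05 over 15097 genes). Over all genes tested 19.2% were higher in NST and 19.8% higher in TN, while 64.4% of the members passed in the direction of NST. That background mixes genes higher and lower in HY. The share among other genes higher in HY was not tested. Across genes, every HY library correlated more closely with the NST median profile than with that of TN. Every TN library likewise correlated more closely with the NST median than with that of HY. NST libraries went both ways: NST of male 48 had r = 0.935 with the HY median and 0.952 with that of TN, and NST of male 39 had 0.966 and 0.951. A place of NST between HY and TN was therefore not limited to the members. The median fitted NST minus TN difference of the members was 0.55 on the log2 scale, against 0.0036 over all genes. The 65 members higher in NST had differences from 0.28 to 2.61 with a median of 0.70, and 15 of the 465 genes called at more than 1 were members. The remaining 35 members did not pass. HY lies above both regions by the rule, so these 65 members form a series from HY through NST to TN.

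ENSTGUG00000008472 had the largest difference between the limbic regions. In control males it stood at a median of 9.27 CPM in HY (4.3996 to 18.7, n = 23), 3.54 in NST (1.22 to 6.07, n = 23) and 0.327 in TN (0 to 4.87, n = 22). TN and NST overlapped only through a few TN libraries with high values, the highest being TN of male 13. The fitted NST minus TN difference was 2.61 (SE 0.27, edgeR adjusted p = 2.59e-13). ENSTGUG00000009968, described above, followed with 2.42 (SE 0.31, adjusted p = 4.88e-10). By limma within males, with each male left out in turn, these differences were 2.14 to 2.32 and 1.77 to 1.93. Both ranges lie below the edgeR values, so the size of the difference depended on the method. ENSTGUG00000009968 had at most 21 reads in any control TN library. Of the 2 members with the highest CPM, ENSTGUG00000010842 had a difference of 0.77 (SE 0.12, adjusted p = 3.81e-07) and ENSTGUG00000002482 of 0.73 (SE 0.14, adjusted p = 1.07e-05).

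A single member was higher in TN than in NST in control males. ENSTGUG00000011603 had a median of 1.82 CPM in HY (0.976 to 4.34, n = 23), 0.107 in NST (0 to 0.388, n = 23) and 0.377 in TN (0 to 2.40, n = 22), and its fitted difference was -2.42 (SE 0.44, edgeR adjusted p = 5.80e-06). It rested on few reads, at most 4 in any control NST library and at most 27 in any control TN library, and 9 control NST libraries had none. The 2 regions overlapped in level. The size of the difference depended on the method: the difference of mean levels, with 0.5 added to each count, was -1.64, and limma on differences within males, with a prior count of 2, gave -1.28 to -1.03 with each male left out in turn. ENSTGUG00000002868, with the largest excess in HY, had a fitted difference of -0.54 (SE 0.46, adjusted p = 0.374) that did not pass, and it was near 0 in both regions.

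LPS males gave the same test a second set of birds, although the limit on the LPS difference ties their values to those of the controls. Within them 45 of 101 members were higher in NST, where 17.6% of all genes were, and 4 were higher in TN, where 16.9% were. Of the 65 members higher in NST in control males, 43 passed in LPS males too. The limit on the LPS difference in both regions holds the control and LPS values of a member near each other, so nothing is read from this overlap. ENSTGUG00000008472 had a difference of 2.74 (SE 0.28, edgeR adjusted p = 1.85e-13) and ENSTGUG00000009968 of 2.99 (SE 0.34, adjusted p = 1.24e-11). By limma with each male left out these differences were 2.08 to 2.38 and 2.03 to 2.32, again below the edgeR values. Towards TN, ENSTGUG00000011603 had -1.84 (SE 0.44, adjusted p = 0.000536), or -1.07 to -0.79 by limma with each male left out, and after it ENSTGUG00000007664 had -0.62 (SE 0.16, adjusted p = 0.000951), which in controls was -0.17 (SE 0.15, adjusted p = 0.405). Whether the NST minus TN difference itself differed between injections was not tested, since the rule limits it.

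**Figure D3:**
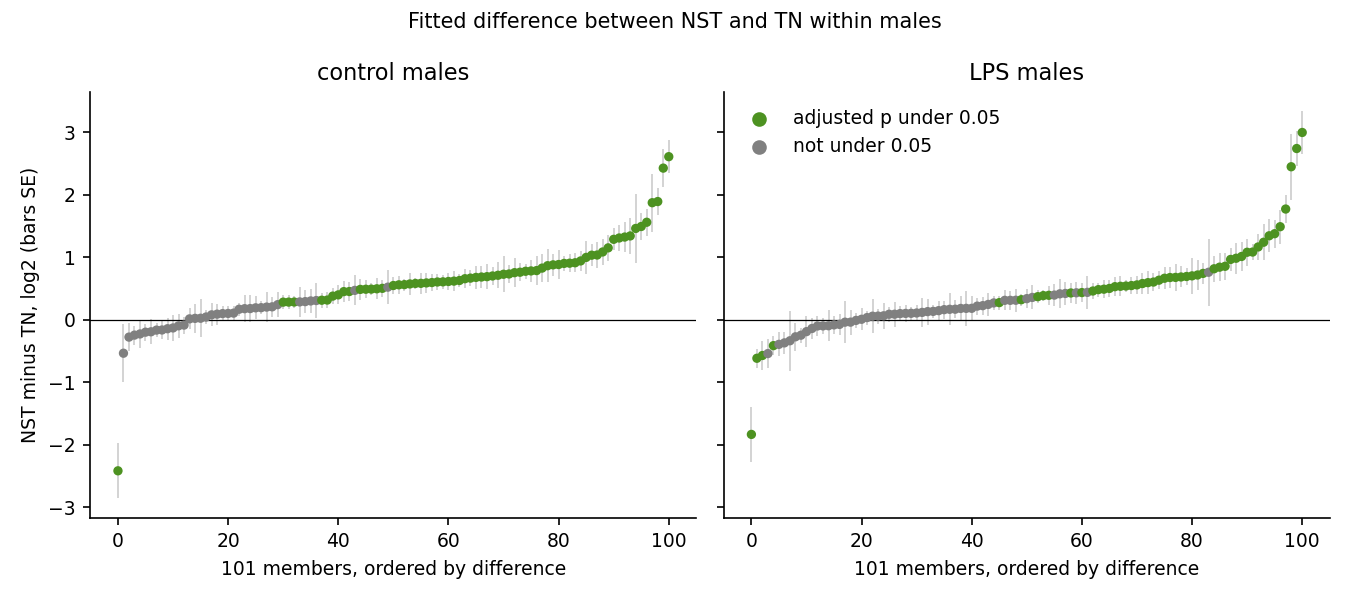
Fitted NST minus TN difference of each of the 101 members within males (log2, bars SE), ordered by size, in control males at the left and LPS males at the right, with members of adjusted p under 0.05 in green. In control males 65 members pass above 0 and 1 below, and in LPS males 45 and 4.

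The place of NST between TN and HY varied among the members. Set as a percentage of the distance from the TN mean to the HY mean in controls, it had a median of 34.6%, with quartiles of 19.2% and 41.2%. For 11 members NST lay past the midpoint, with ENSTGUG00000008472 at 64.1% the furthest, and for 11 members it lay below TN. Because members had to stand at least 1 below HY in NST, those with small differences between HY and TN could not reach a high place on this scale.

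**Figure D4:**
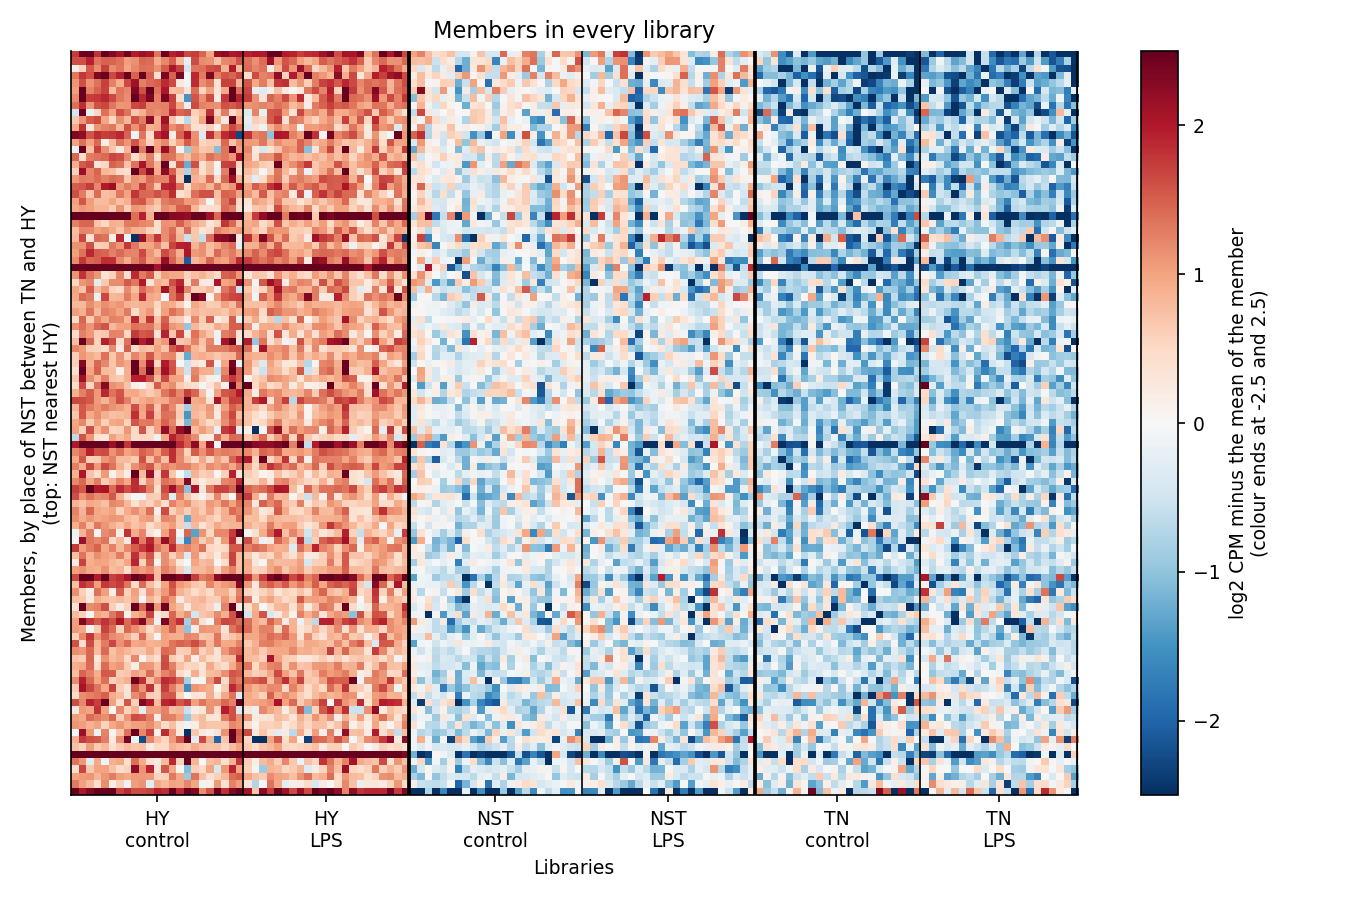
Level of the 101 members (rows) in every library (columns), as log2 CPM minus the mean of the member, with members ordered by the place of NST between TN and HY. HY columns are mostly red, the NST columns are closer to neutral in the upper rows, where NST lies nearest HY, and the TN columns are the bluest in those rows.

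Members were more variable between males of the same group than most genes. In HY the median SD within groups was 0.51 on the log2 scale, against 0.31 over all 12397 genes at that HY level, and 94 of the 101 members were above that median. In NST the medians were 0.68 and 0.28 and in TN 0.75 and 0.30, with 100 and 101 members above. Levels outside HY are lower, and lower counts carry more counting error: in TN 17 members had a control mean under 1 CPM and 15 had no count in some library, and in NST these numbers were 5 and 11. In HY, where 1 member had a library without a count, the median SD was 0.68 over the 26 members of lowest level. It was 0.39 over the 25 of highest level. The median of 0.31 over all genes is not matched to either set by level, so it cannot show how much of the spread goes with level. HY of male 44 was not left out of these SDs. The part of counting error in these spreads was not tested.

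The members also varied together from male to male. In deviations from group means, the first principal component held 31.5% of the variance of the members in HY, 27.98% in NST and 20.9% in TN, against 17.5%, 11.4% and 16.2% for all genes at that HY level. The median correlation between pairs of members was 0.17 in HY over 45 libraries, 0.24 in NST over 46 and 0.15 in TN over 43, and 75.6%, 84.7% and 74.0% of pairs were above 0. Over all genes the medians were 0.032, 0.038 and 0.020, and 54.8%, 57.1% and 53.4% of pairs were above 0. These are descriptions, since all members share the libraries and their depth. Without the library of male 44 the HY component held 30.5%, and without NST of males 3 and 4 the NST component held 27.9%. No value over all genes without these libraries stands beside them.

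Mean levels over the members differed between libraries. In HY the mean level over the members ran from 2.90 to 4.11 in controls (n = 23) and from 3.14 to 4.01 in LPS males (n = 22). The lowest was male 44, which was the lowest HY library for 34 members (33.7%), but it was also the lowest for 36.2% of all genes at that HY level. In NST the mean ran from 1.73 to 2.67 in controls (n = 23) and from 1.05 to 2.88 in LPS males (n = 23). NST of LPS KFC male 65 was lowest for 33 members (32.7%), against 8.79% of all genes, and NST of LPS NF male 3 was highest for 26 members (25.7%), against 6.90%. In TN the mean ran from 1.04 to 2.12 in controls (n = 22) and from 1.28 to 2.43 in LPS males (n = 21). TN of LPS ISO male 6 was highest for 24 members (23.8%), against 4.17% of all genes. The highest mean in NST, 2.88, lay below the lowest in HY, 2.90 in male 44, while NST and TN overlapped widely. The rule placed HY above the other regions, so nothing is read from the gap below HY.

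**Figure D5:**
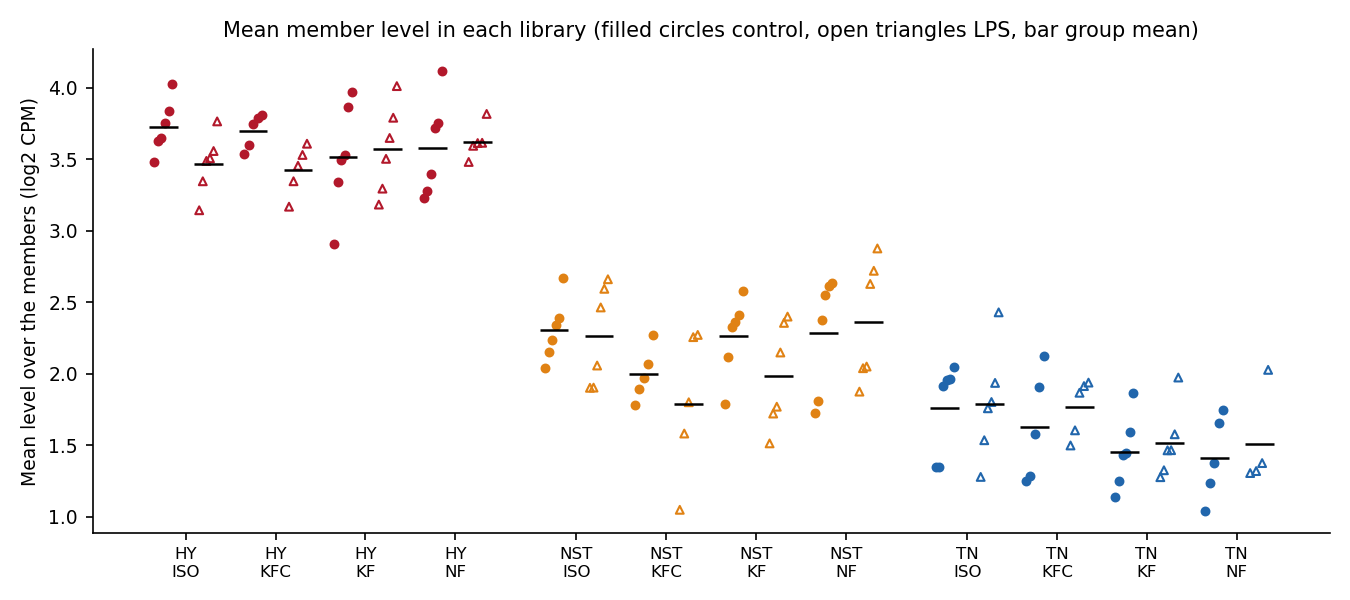
Mean level over the 101 members in each library (log2 CPM), by region and social setting, with filled circles for control males, open triangles for LPS males and a bar at each group mean. HY libraries lie between 2.90 and 4.11 and none is reached by NST or TN, a gap that the rule largely sets. The lowest NST point is male 65 in KFC, and the highest TN point is male 6 in ISO.

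Whether the social setting altered these genes was open to a test, because the rule used means over the settings. No member passed in any region with edgeR. Among control males the 4 settings differed for 0 of 101 members tested in HY, 0 of 99 in NST and 0 of 97 in TN with edgeR, where 0% of all genes passed in each region, and DESeq2 called 0 in each as well. At an unadjusted p under 0.05 stood 4, 2 and 6 members, and with DESeq2 4, 2 and 9. With edgeR these were 3.96%, 2.02% and 6.19% of members, against 5.74%, 4.51% and 4.97% of all genes. The members left out of NST and TN had too few counts there. Averaged over both injections the settings again differed for 0 members in HY, NST and TN with edgeR and with DESeq2, where 0%, 0.0417% and 0% of genes passed. Here 3, 11 and 11 members had an unadjusted p under 0.05 with edgeR, and 3, 19 and 14 with DESeq2. With edgeR these were 2.97% of members in HY, 11.1% in NST and 11.3% in TN, against 4.20%, 12.01% and 8.96% of all genes. No DESeq2 share over all genes stands beside the DESeq2 counts, here or among control males, so nothing is read from them.

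Pairs of settings were compared as well. Over 6 pairs in each region no member passed with edgeR, where 0%, 0.48% and 0.0274% of genes passed in some pair in HY, NST and TN. In HY the median fitted difference of the members lay between -0.02 and 0.02 on the log2 scale in every pair. In NST 90 of 99 members had a fitted NF minus KFC difference above 0, with a median of 0.38 against 0.013 over all genes. Of the 99 members, 25 (25.3%) had an unadjusted p under 0.05 with edgeR in either direction, against 13.2% of genes. The smallest adjusted p was 0.158. Of the same 99 members 14 had a KFC minus ISO difference above 0, with a median of -0.28 against -0.0075 over all genes. In LPS KFC males the mean level of the members in NST was 1.79 ± 0.51 (SD, n = 5) and without male 65 it was 1.98 ± 0.34 (SD, n = 4). It was 1.996 ± 0.18 in control KFC males (SD, n = 5) and between 1.98 and 2.36 in the groups of the other settings. The 2.36 was that of LPS NF males, among them male 3, whose NST library had the highest mean, 2.88. The members moved together between libraries, so their count in a direction is not a count of independent results. No share over all genes stands beside the counts above 0, so nothing is read from them.

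In TN 52 of 101 members had their highest mean in ISO, and none passed with edgeR. No share over all genes stands beside that count or beside the counts above 0 that follow. Here too the members moved together, so counts in a direction are not counts of independent results. The fitted NF minus ISO difference was above 0 for 18 of 97 members, with a median of -0.25 against 0.00076 over all genes. For it 19 members (19.6%) had an unadjusted p under 0.05 with edgeR, against 11.9% of genes. KF minus ISO was above 0 for 21 members, with a median of -0.26 against -0.0069 over all genes. There 21 members (21.6%) had an unadjusted p under 0.05 with edgeR, against 12.04% of genes. ENSTGUG00000009205 had the smallest adjusted p for NF minus ISO, 0.141, at a difference of -1.20, and DESeq2 put the same difference at -1.21 (SE 0.31, adjusted p = 0.0269). It was the only member that DESeq2 called in any of these comparisons. In HY, the region where the members are highest, 23 of 101 had their highest mean in NF, 34 in ISO, 29 in KFC and 15 in KF.

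The LPS difference was limited by the rule only as an average, so that it could still have differed between settings. The interaction of LPS and setting passed for 0 members in HY, NST and TN with edgeR and DESeq2, where 0% of genes passed with edgeR in each region, and 6, 2 and 3 members had an unadjusted p under 0.05 with both tools. With edgeR these were 5.94%, 2.02% and 3.09% of members, against 4.88%, 3.87% and 4.73% of all genes. For DESeq2 no such share is given. Within a single setting some members moved by more than 1 in size. In TN of NF males 8 did, with a range over the members of -2.55 to 1.35. The -2.55 was ENSTGUG00000009968 and rested on few reads, 0 to 2 per LPS library (n = 4) and 3 to 21 per control library (n = 5). In HY of KFC males 6 did, with a range of -1.28 to 1.17, and in HY of KF males 0 did. No share over all genes stands beside these counts, so nothing is read from them. In HY the median LPS minus control difference of the members was -0.24 in ISO, with 80 of 101 below 0, and -0.24 in KFC, with 81 below 0. It was 0.050 in KF, with 43 below 0, and 0.056 in NF, with 37 below 0. These medians are descriptions of genes that move together, and over all genes at that HY level they were -0.016, -0.024, 0.045 and -0.022 in the same order. Beside the counts below 0 in each setting no share over all genes is given. The mean level over the members in HY of ISO males was 3.47 ± 0.21 after LPS and 3.73 ± 0.19 in controls (SD, n = 6 and 6), and the groups overlapped. In KFC it was 3.42 ± 0.17 and 3.69 ± 0.12 (SD, n = 5 and 5). In KF it was 3.57 ± 0.31 and 3.52 ± 0.38 (SD, n = 6 and 6), and 3.64 ± 0.27 in controls without male 44 (SD, n = 5). In NF it was 3.62 ± 0.12 and 3.58 ± 0.34 (SD, n = 5 and 6).

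The difference between regions was compared across settings within males, averaged over both injections. For HY minus NST 0 of 101 members passed and for HY minus TN 0 of 101 (edgeR with the male as a block), where 0% of genes passed in both. In the first, 12 members (11.9%) had an unadjusted p under 0.05, against 7.84% of genes, and in the second 1 member had, against 4.77%. With limma on differences within males 0 members passed in either. A p that misses the threshold does not show that the excess in HY was equal in the 4 settings.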

How the data were processed

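The values deposited by the authors are raw read counts per gene, not normalized, 1 column per library. Per the submitters' processing notes, HISAT2 and HTSeq 0.6.1 were used. The build, the annotation and the use of strand in counting are not given in those sources. How reads from overlapping or near-identical genes were treated is therefore not known. Per the labels' protocols, a NEBNext Ultra kit made the libraries. None of the 18618 identifiers matched the reference gene table (0 matches), so lists of named genes could not be used.

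The members, lists and tests were chosen with earlier results of these data known. Named members were the 2 with the largest excess in HY, the 2 with the highest HY level, and up to 2 at each end of the called NST minus TN differences in control males, with others named where the text says so or where they had the smallest p.

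The test was edgeR 4.0.16, run in R 4.3.3 on the counts (filterByExpr, minimum count 10 and total 15; TMM; robust quasi-likelihood fit; Benjamini-Hochberg adjustment over all genes, 0.05). Settings were fitted per region with 8 groups. Regions were compared in 1 fit with the male as a block. Each SE is the size of the fitted difference over the square root of its F. The replicate number in the labels was taken as the male, since the design text describes dissecting the regions from each brain. Deviations of same-numbered libraries correlated at a median r of 0.577 (HY with NST), 0.521 (HY with TN) and 0.540 (NST with TN), over 0.1 for 42 of 45, 40 of 42 and 42 of 43 males, the exceptions being males 19, 32 and 33. No 2 libraries of a region agreed within counting noise (lowest chi-square per gene 8.81), so none were merged. The edgeR scripts were tested on simulated counts and the limma script on simulated, normally distributed log2 values. DESeq2 was not part of these tests.

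Alternatives were RLE scaling, no filter, DESeq2 1.42.0, no replicate block, left-out libraries and males, and, added after the data were seen, limma 3.58.1 on log2 CPM differences within males (prior count 2). Figures were drawn with matplotlib 3.10.9. Libraries held 7339294 or more counts, and for HY, NST and TN edgeR put the common biological coefficient of variation at 0.277, 0.272 and 0.306.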

Additional observations from a re-analysis of the deposited data

Results flagged for a closer look

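In TN of LPS NF males the mean level over the members was 2.03 in male 24, while the other 3 males of the group lay between 1.30 and 1.37. The gap took up 0.903 of the range of the group, above the value of 0.829 that marks 1 of 4 samples as far from the rest. Of the 24 groups examined this was the only such case, and chance alone flags about 1 in 20 groups.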

How the results depend on the processing

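With RLE scaling, with no filter on low counts, without HY of male 44, without NST of males 3 and 4, or without males 32 and 33, 63 to 65 members were higher in NST and 1 in TN in control males, and 40 to 46 and 4 to 5 in LPS males. With no replicate block the counts were 59 and 1 in control and 41 and 3 in LPS males, and 0 for the settings by region difference, close to those with the block. With limma on differences within males, 57 and 1 members were called in control and 42 and 4 in LPS males. Leaving out each male in turn gave 54 to 63 higher in NST and 1 to 2 higher in TN in control males, with 2 reached without male 63, and 35 to 49 and 3 to 6 in LPS males. No share over all genes stands beside the NST and TN counts under these alternatives, so whether that share moved with them is not shown. DESeq2 called 1 member over the pairs of settings in TN, ENSTGUG00000009205, where edgeR called 0. All other counts of members called for the settings were 0 under every alternative run, leave-one-out included. The rule gave 74 members with TMM scaling, 72 of them among the 101, and 112 without HY of male 44, 90 without NST of males 3 and 4, and 87 to 126 with each male left out. Leaving out each male in the edgeR fit with the block was not run, and limma took its place. HY of male 44 and NST of males 3 and 4 do not enter the setting tests of other regions. No paired analysis was possible for the setting tests because each number occurs once in a region. In NST 11 and in TN 15 members had no count in some library, which limits what depth can show for them.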
